A study of Cucurbita pepo with 12 samples.

Results

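Roots of zucchini grown with copper oxide (CuO) of large particle size, called bulk CuO, were compared with roots grown with CuO nanoparticles. The compound and the dose were the same, and the particle size differed. The comparison covers the 20985 genes that averaged at least 1 FPKM over the 4 root libraries, of 27868 genes in the table. FPKM is the number of sequenced fragments per kilobase of transcript, scaled to sequencing depth. On this scale 300 genes were far higher under bulk CuO than under nanoparticles and 189 were far lower, while 82.4% of the genes lay within 1 log2 unit of no difference. In 230 of the 300 higher genes control and copper sulfate roots both lay on the nanoparticle side of the midpoint between the CuO roots. In 135 of these both lay at most 0.333 of the way from nanoparticles to bulk CuO, or beyond nanoparticles. In a smaller set of the higher genes copper sulfate lay on the bulk CuO side and the control on the nanoparticle side. Among them were 5 of 6 genes with neighbouring identifiers.

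Copper is an essential metal for plants. It is the cofactor of plastocyanin in photosynthesis, of cytochrome c oxidase in respiration and of some superoxide dismutases, and in excess it damages membranes and proteins. Roots take it up as an ion, and plants hold free copper low by transport, chelation and storage. CuO particles release copper ions as they dissolve, and smaller particles expose more surface per mass.

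The plants were Cucurbita pepo of the cultivar Costata Romanesco. Seeds germinated for 10 days, and each seedling then grew in a pot with 500 g of soil for 60 days, until flowering. The bulk CuO and nanoparticle soils held 100 mg/kg of CuO. Another soil held 320 mg/kg of copper sulfate pentahydrate (CuSO4), and each of these 3 soils carried about 80 mg/kg of added copper. Control soil had no added copper. Root, leaf and pollen were sampled, with 1 library for each tissue and soil. The design text states 3 biological replicates per treatment, and does not say whether their RNA was pooled. With 1 library a side there is no test and no replicate error, and a difference of the bulk CuO library cannot be told apart from a difference of bulk CuO treatment. Tissue was sequenced in bulk, so fewer cells of a type and less RNA per cell cannot be told apart either.

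The 4 root libraries listed 20550 to 20881 genes at 1 FPKM or more, and their 10 most abundant genes held 4.11% to 5.37% of all FPKM. Read totals were not used here. Steps between the lowest FPKM values put the bulk CuO library at 1.01 times the depth of the nanoparticle library, so depth was nearly the same on both sides. Gene identifiers are printed as the table gives them. None of them (0 of 27868) occurs in the RefSeq gene table of this species, so no gene name or function is attached here, and the labelled tissues were not checked against marker genes. No list of copper or stress genes was used for that reason, and few identifiers are named for each pattern.

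The direct comparison asked how particle size at a fixed dose shows in the root transcriptome. Differences were taken on the log2(FPKM + 1) scale, and genes at or past 2.3, the submitters' threshold, were counted. This is a 4.92-fold difference in FPKM + 1. The 300 higher genes made up 1.43% of the genes compared and the 189 lower genes 0.901%. The median size of their difference was 2.89 in the higher and 2.67 in the lower genes. A difference of at least 4 was found for 39 higher and 12 lower genes. The counts have sharp edges only by definition: the smallest higher difference was 2.31 with 2.2997 just outside, and the mildest lower one was -2.31 with -2.2988 just outside. At the entry filter, the lowest mean kept was 1 FPKM and the highest left out was 0.99975 FPKM.

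**Figure D1:**
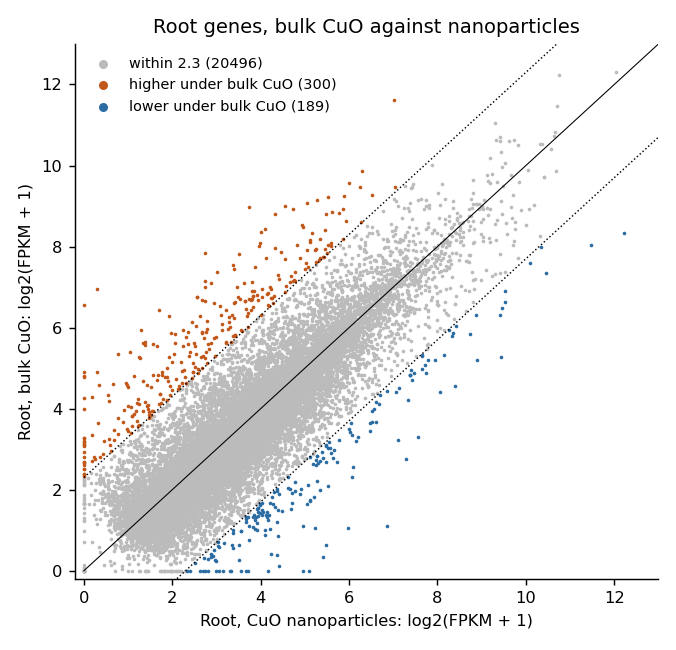
Level of each of the 20985 root genes under nanoparticles (horizontal) and bulk CuO (vertical), both as log2(FPKM + 1), 1 library each. The solid line marks equal levels and the dotted lines a difference of 2.3. The 300 higher genes (orange) and 189 lower genes (blue) spread over the whole range of levels, and points on an axis are genes listed at 0 in 1 library.

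The weight of the higher genes depended on where the line was drawn and on the centre of the libraries. Over all genes, bulk CuO lay at a median of 0.14 below nanoparticles on the log2 scale. Higher genes were 61.3% of the genes past 2.3, and 69.4% with the library medians made equal (352 higher and 155 lower). At a threshold of 1, 1757 genes (8.37%) lay above and 1942 (9.25%) below, so 47.5% were higher. The median shift turned this to 58.8%, with 2120 higher and 1487 lower. Smaller differences therefore had no fixed balance of directions, while the large ones had more higher than lower genes under every scaling tried.

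The 300 higher genes together held 0.686% of all FPKM under nanoparticles and 6.51% under bulk CuO. In control roots they held 1.34% and under CuSO4 2.40%. The 189 lower genes held 4.91% under nanoparticles, 0.563% under bulk CuO, 3.02% in the control and 2.46% under CuSO4. Both sums for control and CuSO4 lay between those of the CuO libraries, as is mostly so for genes picked by the gap between these libraries. The median higher gene had 5.31 FPKM in the nanoparticle root and 53.1 FPKM in the bulk CuO root. For the median lower gene these levels were 28.9 and 2.51 FPKM. At least 100 FPKM in the higher library was reached by 103 of the 300 and 43 of the 189.

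The level of these genes in roots that did not enter the difference was read from the mean of the control and CuSO4 libraries, a measure added after seeing the data. Among genes with 1 to 5 FPKM there, 119 of 6201 (1.92%) were past 2.3, and among those with 5 to 20 FPKM 167 of 8673 (1.93%). From 20 to 100 FPKM it was 125 of 4714 (2.65%). Of the 948 genes at 100 FPKM or more, 51 (5.38%) were past it, 18 higher and 33 lower under bulk CuO. The share was thus about level up to 20 FPKM and larger in the most abundant genes. Below 1 FPKM 27 of 449 genes (6.01%) were past it, but a gene that low in control and CuSO4 entered the comparison only through its CuO libraries. Adding 1 before the log compresses the differences of low genes.

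With 1 FPKM added, the largest difference in favour of bulk CuO was that of Cp4.1LG03g18220, at 6.67. With 0.1 added its difference was 8.59, behind 9.87 for Cp4.1LG00g13940. The level of Cp4.1LG03g18220 was 0.222 FPKM under nanoparticles, 10.6 FPKM under CuSO4, 20.8 FPKM in the control and 124 FPKM with bulk CuO. Nanoparticle and bulk CuO roots thus lay on opposite sides of the control, at -4.16 and 2.51 on the log2 scale. The leaf libraries repeated the low nanoparticle value, at 0.209 FPKM against 17.7 FPKM in the control and 7.94 FPKM under bulk CuO, but CuSO4 leaf was as low, at 0.194 FPKM. In pollen the gene lay between 2.27 and 4.86 FPKM in every library.

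Cp4.1LG00g13940 came second. It was listed at 0 in nanoparticle and CuSO4 roots, at 93.1 FPKM in control and 93.3 FPKM in bulk CuO roots, and the difference of 6.56 therefore rests on the 1 FPKM added to each value. Leaf showed the same split. Pollen did not: the nanoparticle library held 13.1 FPKM, bulk CuO 7.78 FPKM and the control 10.2 FPKM, while CuSO4 was listed at 0. The soil with nanoparticles thus did not go with a 0 in every tissue.

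With 1 FPKM added, the largest difference in favour of nanoparticles was that of Cp4.1LG20g07200, with 115 FPKM in the nanoparticle root and 1.14 FPKM in the bulk CuO root, a difference of -5.76. Control and CuSO4 roots held 12.2 and 5.14 FPKM. The gene was nearly absent outside the root, with at most 2.32 FPKM in a leaf library and 0 in all 4 pollen libraries. With 0.1 added it was -6.54, smaller than that of 3 other genes given here, among them Cp4.1LG18g05970 at -8.37. Cp4.1LG18g05970 followed at -5.09 with 1 added, listed at 0 in bulk CuO and control roots, with 33.1 FPKM in the nanoparticle and 31.6 FPKM in the CuSO4 root. In leaf the same gene was present throughout, from 19.1 FPKM under CuSO4 to 39.1 FPKM in the control.

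Listing at 0 accounted for only part of the counts. Of the higher genes 24 were listed at 0 under nanoparticles, and of the lower genes 17 were listed at 0 under bulk CuO. Without them 276 and 172 genes were left.

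**Figure D2:**
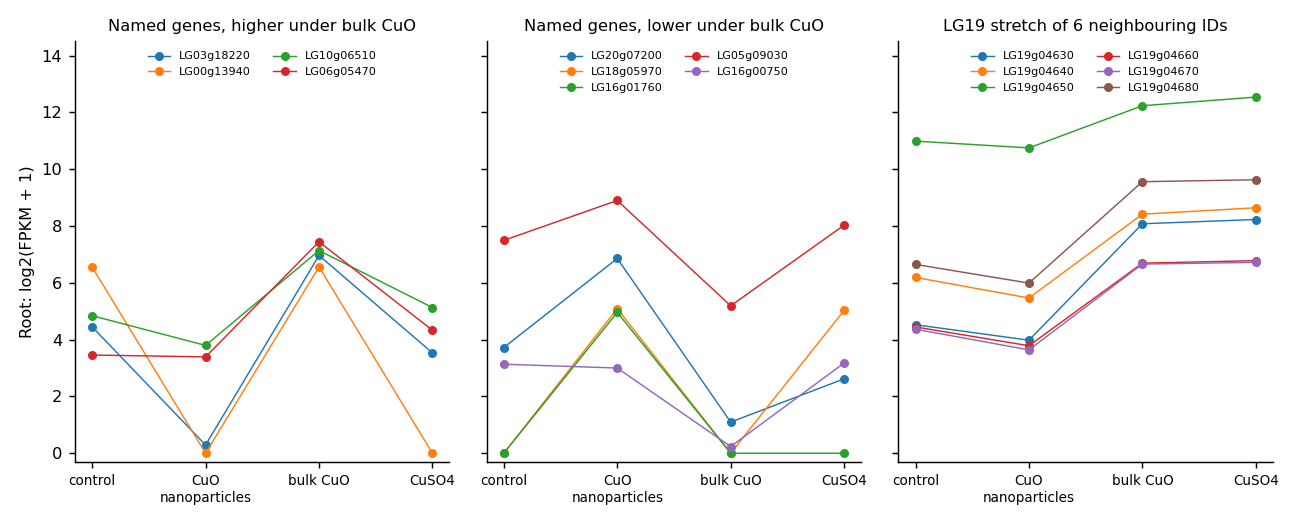
Root level of the named genes, as log2(FPKM + 1), in the 4 root libraries, with lines joining the values of a gene. The left panel holds genes higher and the middle panel genes lower under bulk CuO, and the right panel holds 6 genes with neighbouring identifiers, in which CuSO4 stood as high as bulk CuO.

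Control and CuSO4 roots did not enter the difference, so their levels show which of the CuO libraries stood apart. For each gene the nanoparticle level was set to 0 and the bulk CuO level to 1 on the log2(FPKM + 1) scale. Genes picked for a wide gap between these libraries will mostly have the others in between, and only the side of the midpoint is read here. In the 300 higher genes the control had a median place of 0.23 and lay on the nanoparticle side in 272 (90.7%). CuSO4 had a median place of 0.29 and lay on that side in 244 (81.3%). In the 189 lower genes the median places were 0.31 for the control and 0.41 for CuSO4, with 141 (74.6%) and 113 (59.8%) on the nanoparticle side.

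Bulk CuO was alone on its side of the midpoint in 230 of the 300 higher genes (76.7%) and in 92 of the 189 lower genes (48.7%). With control and CuSO4 both at a place of 0.333 or less, it was 135 higher and 50 lower genes. Places were not counted over all genes, so these shares are not read as particular to the lists. Over all 20985 genes bulk CuO was at least 1 log2 unit above the control in 1397 and below it in 1204. For nanoparticles these counts were 481 and 299. Among the 230, the median gene stood at 5.23 FPKM under nanoparticles, 8.44 FPKM in the control, 9.32 FPKM under CuSO4 and 52.7 FPKM under bulk CuO. The widest gap among those above 0 in both CuO libraries was that of a gene with 12.3 FPKM under nanoparticles, 29.5 FPKM in the control, 52.7 FPKM under CuSO4 and 501 FPKM under bulk CuO, a difference of 5.24. The leading gene of the 92 lower ones had 188 FPKM under nanoparticles, 132 FPKM under CuSO4, 84.4 FPKM in the control and 8.78 FPKM under bulk CuO.

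Nanoparticles were alone on their side in 14 higher genes (4.67%) and 27 lower genes (14.3%). Of the 14, 8 were listed at 0 under nanoparticles, so 6 remained without such values. The leading gene of these 6 had 1.94 FPKM under nanoparticles against 12.6 FPKM under CuSO4, 20.7 FPKM in the control and 47.4 FPKM under bulk CuO. Of the 27 lower genes, 22 were above 0 in both CuO libraries. The median of the 27 stood at 24.7 FPKM under nanoparticles, 4.19 FPKM under CuSO4, 3.82 FPKM in the control and 1.68 FPKM under bulk CuO.

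**Figure D3:**
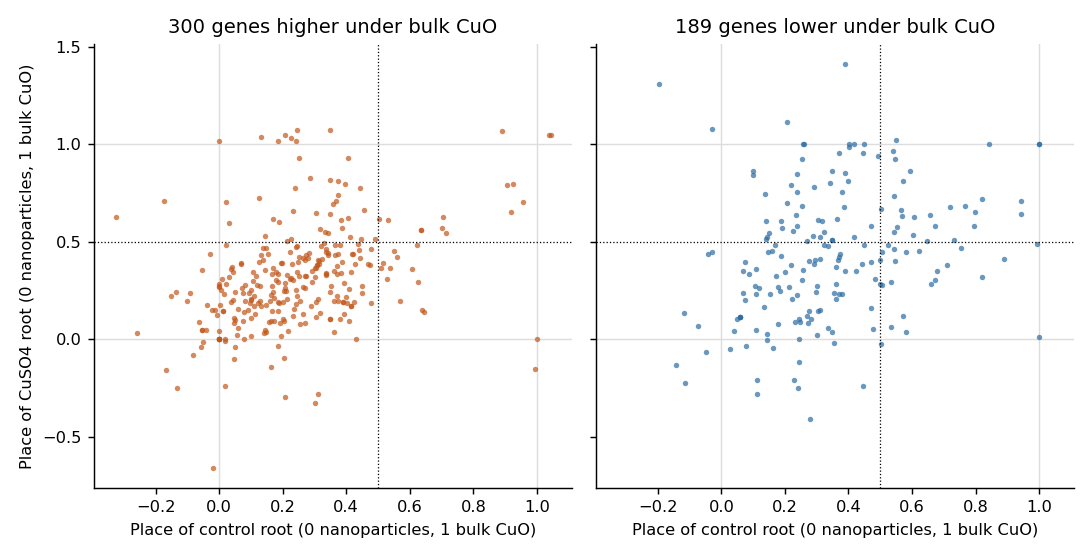
Place of the control root (horizontal) and the CuSO4 root (vertical) between the nanoparticle root (0) and the bulk CuO root (1), on the log2(FPKM + 1) scale, for the 300 genes higher and the 189 lower under bulk CuO. Dotted lines mark the midpoints. The higher genes crowd in the lower left, where both other roots lie near nanoparticles, and the lower genes are more scattered.

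A stricter count asked where a library lay at least 2.3 from all 3 other root libraries. Bulk CuO did so in 83 genes above the others (0.396%) and 16 genes below them (0.0762%). Nanoparticles did so in 5 genes above (0.0238%) and 5 below (0.0238%). The control had 8 above (0.0381%) and 5 below (0.0238%), and CuSO4 3 above (0.0143%) and 12 below (0.0572%). Zeros made up many of the small counts: 4 of the 5 genes lowest under nanoparticles were listed at 0 there. In only 5 of the 83 genes highest under bulk CuO were the other 3 roots all at 0. By definition these 83 and 16 genes are part of the 300 and 189.

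**Figure D4:**
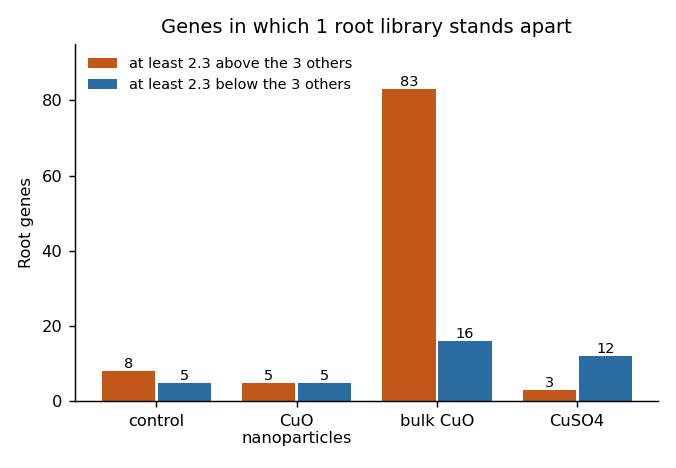
Number of root genes in which a library lay at least 2.3 above (orange) or below (blue) each of the 3 other root libraries on the log2(FPKM + 1) scale, of 20985 genes. Bulk CuO has 83 and 16 genes, and no other library has more than 12 in a direction.

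The size of each step from the control was then set side by side. These steps share the control library, and the gap between them is the difference by which the genes were picked. Median steps on opposite sides of the control are thus largely set by that choice, and only their sizes are described. In the 300 higher genes the median log2 step from the control was 2.25 for bulk CuO and -0.70 for nanoparticles. In the 189 lower genes it was -1.90 for bulk CuO and 0.89 for nanoparticles. Over all 20985 genes these medians were -0.08 for bulk CuO and 0.06 for nanoparticles. Opposite steps of at least 1 each occurred in 80 of the higher and 58 of the lower genes. Bulk CuO was past 2.3 from the control with nanoparticles within 1 of it in 114 higher and 38 lower genes, and the reverse held in 7 and 10. Among all 20985 genes, bulk CuO was at least 2.3 above the control in 175 and below it in 76. Nanoparticles were above it in 30 and below it in 22. The joint patterns were not counted over all genes, so they are not read as particular to the lists. In 149 higher and 128 lower genes neither material was past 2.3 from the control, and only the direct comparison counts them.

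In a further set CuSO4 lay on the bulk CuO side of the midpoint and the control on the nanoparticle side. These were 42 of the higher genes (14.0%) and 49 of the lower genes (25.9%). Under a stricter rule, with the control at a place of 0.333 or less and CuSO4 past 0.667, 13 and 15 were left. The median of the 42 stood at 10.9 FPKM under nanoparticles, 20.5 FPKM in the control, 53.7 FPKM under CuSO4 and 100.3 FPKM under bulk CuO. The leading gene of the 42 had 129 FPKM under nanoparticles and 250.4 FPKM in the control, against 3648 FPKM under CuSO4 and 3140.0 FPKM with bulk CuO. It was also abundant in every leaf library, from 628 FPKM in the control to 1479 FPKM under bulk CuO. The leading gene of the 49 stood at 41.4 FPKM under nanoparticles, 17.4 FPKM in the control, 1.98 FPKM under CuSO4 and 0.267 FPKM under bulk CuO. The remaining genes, 14 higher and 21 lower, had the control on the bulk CuO side of the midpoint and CuSO4 on the nanoparticle side. Under the stricter rule 2 higher and 3 lower genes were left. Cp4.1LG03g18220 and Cp4.1LG00g13940 were among the 14. For Cp4.1LG03g18220 this holds only by the midpoint, with CuSO4 at a place of 0.486 and the control at 0.623.

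The genes in which bulk CuO and CuSO4 went together included a stretch of neighbouring identifiers with the LG19 prefix, singled out after its values were seen. From Cp4.1LG19g04630 to Cp4.1LG19g04680 there are 6 genes, and 5 of them were past 2.3. Cp4.1LG19g04680 stood at 62.5 FPKM under nanoparticles and 99.2 FPKM in the control, against 754 FPKM with bulk CuO and 790.1 FPKM with CuSO4. Cp4.1LG19g04630 stood at 14.8, 22.0, 269 and 299 FPKM in the same order of libraries. The sixth gene, Cp4.1LG19g04650, was far more abundant, at 1721, 2031, 4817 and 5950.1 FPKM in that order, and its difference of 1.48 stayed below the threshold. Over the 6 genes the difference between bulk CuO and nanoparticles ran from 1.48 to 4.099, and CuSO4 lay 0.06 to 0.30 above bulk CuO, so these roots were nearly level in all 6.

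In leaf the bulk CuO library was also the highest of the 4 for 5 of these genes, with 0.93 to 1.58 between it and nanoparticles, but CuSO4 leaf lay lower. Cp4.1LG19g04680 stood at 70.0 FPKM under nanoparticles, 72.8 FPKM in the control, 140.4 FPKM under CuSO4 and 211 FPKM under bulk CuO in leaf. Cp4.1LG19g04650 was at most 0.211 FPKM in leaf and 0.285 FPKM in pollen. Cp4.1LG19g04660 and Cp4.1LG19g04670 had almost the same level in every root library, 102 and 100.1 FPKM under bulk CuO for example. Whether near-identical genes shared reads there was not tested, and their levels are uncertain if they did.

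CuSO4 and control roots share no library with the comparison of the CuO materials, so the difference between them is a separate measurement on the same genes. Among all 20985 genes, 33 (0.157%) were at least 2.3 higher and 72 (0.343%) lower under CuSO4 than in the control. Of the 300 genes higher under bulk CuO, 10 (3.33%) were higher and 2 (0.667%) lower. Of the 189 lower genes, 1 (0.529%) was higher and 5 (2.65%) lower. At 1 log2 unit, 36 of the 300 (12%) were higher and 11 (3.67%) lower, and 17 of the 189 (8.99%) were higher and 41 (21.7%) lower. Over all genes these shares were 2.53% and 2.63%. The median difference was 0.18 in the higher, -0.14 in the lower and -0.07 in all genes. The lists thus leaned in the direction of bulk CuO by small amounts, and most members were near the control under CuSO4.

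Leaf and pollen gave the same comparison of materials with other libraries. In leaf 905 of 20833 genes (4.34%) had more transcript under bulk CuO and 591 (2.84%) had more under nanoparticles. Of the 300 higher root genes 8 were also higher in leaf (2.67% of the root list and 0.884% of the leaf list), and 19 were lower (6.33% and 3.21%). Of the 189 lower root genes 25 were also lower in leaf (13.2% and 4.23%), and 5 were higher (2.65% and 0.552%). Only 215 of the 300 and 150 of the 189 averaged at least 1 FPKM in leaf and could be counted there. Shares of the whole root lists are thus not on the same footing as the shares of all leaf genes. Both root lists therefore had more members lower than higher in bulk CuO leaf, although all leaf genes leaned the other way. The median leaf difference was -0.20 in the higher root genes, -0.57 in the lower root genes and 0.17 in all genes kept in both tissues.

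**Figure D5:**
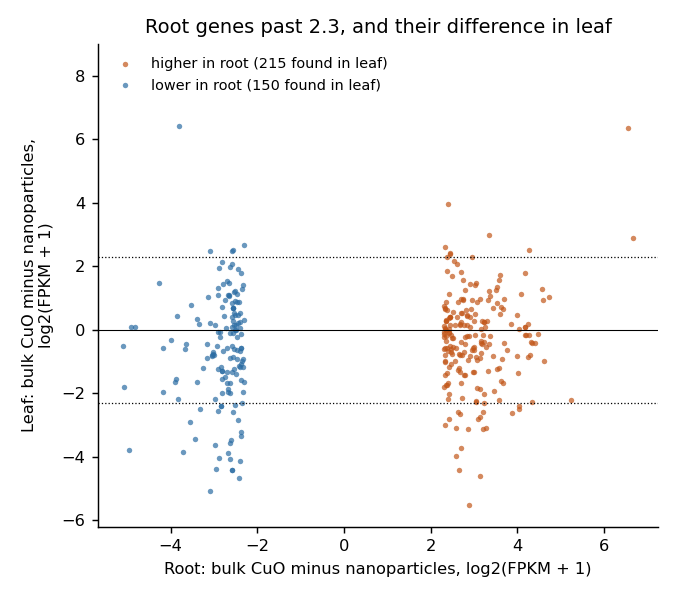
Difference between bulk CuO and nanoparticles in root (horizontal) and leaf (vertical), both on the log2(FPKM + 1) scale, for the 215 higher and 150 lower root genes that averaged at least 1 FPKM in leaf. Dotted lines mark 2.3 in leaf. In both groups more genes lie past 2.3 below than above in leaf, 19 against 8 of the higher and 25 against 5 of the lower root genes.

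Ranked by the smaller of its differences in root and leaf, Cp4.1LG10g06510 came after Cp4.1LG00g13940 among genes higher in both. In root it stood at 12.9 FPKM under nanoparticles, 27.7 FPKM in the control, 34.0 FPKM under CuSO4 and 140 FPKM under bulk CuO. In leaf it stood at 2.46, 2.5, 9.83 and 26.5 FPKM in the same order. Bulk CuO was the highest library in both tissues, with differences of 3.34 and 2.99 from nanoparticles. Among genes lower in both, Cp4.1LG05g09030 had 476 FPKM in the nanoparticle root and 35.5 FPKM in the bulk CuO root, against 58.0 and 3.13 FPKM in leaf. Control and CuSO4 held 179 and 260.5 FPKM in root and 31.1 and 11.5 FPKM in leaf, between the CuO materials in both tissues. In both tissues Cp4.1LG16g01760 had 0 FPKM in the bulk CuO and control libraries, and stood at 30.1 FPKM in root and 12.7 FPKM in leaf under nanoparticles. CuSO4 was at 0 in root and 2.29 FPKM in leaf for that gene.

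In pollen 113 of 11185 genes (1.01%) had more transcript under bulk CuO and 19 (0.170%) had more under nanoparticles. Of the root genes, 1 was higher in both tissues and 1 lower in both. A further 7 were lower in root and higher in pollen, 3.70% of the 189 lower root genes and 6.19% of the 113. Only 45 of the 189 averaged at least 1 FPKM in pollen and could be counted there, and 77 of the 300 higher genes. Of the 7 genes, 4 were listed at 0 in a CuO library of root or pollen. Cp4.1LG06g05470 was the gene higher in both, at 9.50 and 173 FPKM in root and 0.158 and 14.9 FPKM in pollen under nanoparticles and bulk CuO. Its control and CuSO4 levels were 9.98 and 19.1 FPKM in root and 0.265 and 12.9 FPKM in pollen, so CuSO4 was near bulk CuO in pollen and not in root. In leaf the same gene was lower under bulk CuO, 4.82 FPKM against 29.8 FPKM under nanoparticles. Cp4.1LG16g00750 was lower in both root and pollen, at 6.99 and 0.177 FPKM in root, and at 4.53 FPKM and 0 in pollen.

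Genes past 2.3 in root were found in the other tissues less often than root genes in general. A mean of at least 1 FPKM in leaf was reached by 215 of the 300 higher genes (71.7%), 150 of the 189 lower genes (79.4%) and 90.8% of all 20985 root genes. In pollen it was reached by 77 (25.7%), 45 (23.8%) and 47.0%. In the control and CuSO4 roots, which did not pick the genes, the median of the gene means was 11.3 FPKM in the higher genes, 12.8 FPKM in the lower genes and 9.27 FPKM in all. At 5 to 20 FPKM in those roots, 76.6% of the 167 genes past 2.3 and 95.6% of all genes reached 1 FPKM in leaf. At 20 to 100 FPKM it was 88.8% of 125 and 97.2%, and at 100 FPKM or more 88.2% of 51 and 95.9%. In pollen the shares in that most abundant group were 33.3% and 65.7%. At each of these levels the share found in the other tissue was thus lower among the genes past 2.3 than among all genes, with no test of the gap. In leaf the gap was uneven by direction. At 20 to 100 FPKM it was 86.4% of 88 higher and 94.6% of 37 lower genes. At 100 FPKM or more it was 94.4% of 18 higher and 84.8% of 33 lower genes.

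The identifiers carry a group prefix from LG00 to LG20 and a running number. Genes past 2.3 came from all 21 prefixes. In the 20 prefixes other than LG00 they made up 1.5% to 2.81% of the genes, and higher genes outnumbered lower ones in 17 of the 20. LG00 had 39 of 913 (4.27%), and 16 of these 39 were listed at 0 in a CuO root library, against 25 of 450 (5.56%) in all other prefixes. Of the 300 higher genes 17 (5.67%) had a list member at the next or the previous number, in 8 runs. Of the 189 lower genes 6 (3.17%) had one, in 3 runs. The lists held 1.43% and 0.901% of all genes, shares that stand for a single number and not for both neighbours. How many neighbours lists of that size would hold anyway was not tested. The run of Cp4.1LG07g04850 and Cp4.1LG07g04860 had identical values in every root library. The longest run had 3 genes and lay in the LG19 stretch. Genes whose values were identical in all 12 libraries numbered 10 among the 300 higher (5 sets) and 4 among the 189 lower genes (2 sets). Among all 20985 genes they numbered 164, in 77 sets. Whether they shared reads was not tested.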

How the data were processed

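Total RNA of root, leaf and pollen was made into strand-specific mRNA libraries with a TruSeq kit and sequenced from 1 end for 75 bp (NextSeq 500), per the labels' protocols. The submitters' processing notes name cutadapt, STAR and StringTie, and the series design text names alignment to a public reference transcriptome. No source used here gives versions or a build. Values are FPKM per gene, normalized by the authors, in 1 deposited table of 12 libraries.

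Count models were not run on FPKM, and absolute depth is unknown. Relative depth came from ratios of values between 0.2 and 1.5 FPKM, and estimates closed within 0.0025 on the log2 scale in root. Differences are on the log2(FPKM + 1) scale, where changes of low genes look smaller, and cover genes averaging 1 FPKM or more across a tissue's 4 libraries. Genes at or past 2.3 were counted, and no test was made.

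Genes and rules were chosen with earlier results of these data known. Named are the first 2 genes per direction by size of the difference with at least 5 FPKM in the higher CuO library, and the first 2 per direction past 2.3 in root and in leaf or pollen. The LG19 stretch and the leading genes given without identifier, ranked by the size of the difference, were chosen after their values were seen. Alternatives changed the pseudocount, the filter, the scaling, zeros and identical genes. The functions were tested on simulated data. Python 3.11.15, numpy 2.4.6, pandas 2.3.3 and matplotlib 3.10.9 were used.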

Additional observations from a re-analysis of the deposited data

Results flagged for a closer look

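Between bulk CuO and nanoparticles, 24 genes were past 2.3 in opposite directions in root and leaf. The difference between the tissues was not tested, with 1 library for each tissue and material. Of these, 19 were higher in root and lower in leaf under bulk CuO. The gene with the widest gaps went from 5.74 FPKM under nanoparticles to 58.2 FPKM under bulk CuO in root and from 56.5 to 1.35 FPKM in leaf. The other 5 were lower in root and higher in leaf, and the leading gene went from 17.8 to 0.336 FPKM in root and from 1.58 to 221 FPKM in leaf. Its CuSO4 leaf also stood high, at 62.3 FPKM, against 1.45 FPKM in the control.

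Between root and pollen 7 genes were in opposite directions, all lower in root and higher in pollen under bulk CuO, again without a test. The leading gene went from 66.7 FPKM under nanoparticles to 4.86 FPKM under bulk CuO in root, and from 0.265 to 10.1 FPKM in pollen.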

How the results depend on the processing

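With 1 library per group no library can be left out of a group, and no paired analysis was possible because each group has 1 library. Absolute depth is unknown, so neither intervals nor floors are given, and genes near 1 FPKM are the least certain.

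With 0.1 in place of 1 added to FPKM, 479 genes stood higher and 423 lower with bulk CuO, and with 5 added 146 and 64. By place between the CuO roots, 0.1 gave 63 higher genes with nanoparticles apart, 87 with CuSO4 beside bulk CuO and 22 with the control beside it. The lower classes were then 228 with bulk CuO apart, 48 with nanoparticles apart, 95 with CuSO4 and 52 with the control beside bulk CuO. With 5 added, the classes in the order bulk CuO apart, nanoparticles apart, CuSO4 and control beside bulk CuO were 116, 3, 20 and 7 for higher genes and 36, 8, 14 and 6 for lower genes. Genes past 2.3 in the same and in opposite directions numbered 83 and 69 in root and leaf with 0.1, and 8 and 8 with 5. In root and pollen they were 13 and 14 with 0.1, and 0 and 1 with 5. CuSO4 against control gave 50 in the direction of bulk CuO and 21 against it with 0.1, and 5 in that direction with 5. Among settings chosen after seeing the data, bulk CuO lay apart from the 3 other roots in 138 genes above and 86 below with 0.1, and in 40 and 7 with 5.

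A stricter place rule, with places between 0.333 and 0.667 left out, gave 135, 6, 13 and 2 higher genes and 50, 7, 15 and 3 lower genes in the same class order. Without genes listed at 0, 6 higher genes had nanoparticles apart, root and pollen shared 1 gene in the same and 3 in opposite directions, and 0 genes went against bulk CuO under CuSO4. At 5 FPKM in the other tissue, 136 higher genes were found in leaf, and 35 higher and 16 lower genes in pollen. Counting 2 identifiers to either side raised the higher genes with a neighbour to 27.

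The counts of 300 and 189 stayed within 1.5 times under no filter, a mean of 5 FPKM, median shift, quantile normalization, genes at 0 left out and identical genes counted once. Median shift kept all 300 higher calls and 155 of the 189 lower ones. No named gene changed direction under another pseudocount, median shift or quantile normalization. With 5 added, 13 of 15 genes followed singly, named or leading a class, stayed past 2.3. Cp4.1LG16g00750 then went from -2.76 to -1.21 and was no longer past it. The order of the leading genes depended on the pseudocount, and at a threshold of 1 the balance of directions turned with the median shift, from 47.5% to 58.8% higher.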
